A study of Mus musculus with 18 samples.

Results

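Transcript levels were compared between interferon-producing killer dendritic cells (IKDC) and conventional dendritic cells (cDC) of mouse spleen. The comparison took the 2 samples titled IKDC and the 2 titled cDC, 4 of the 6 samples of the series and 12 of its 18 arrays. Each sample had been hybridised to the U74A, U74B and U74C members of the Affymetrix U74 version 2 set, on which a probe set is a group of short probes for 1 transcript. All probe sets other than controls with a signal of at least 60 on at least 2 of the 6 arrays of a type were used, 23285 of 36701. The cDC samples served the submitters as control. Both populations came from mouse spleen, and the labels list no treatment, genotype, strain or age for either. The sources used here do not state the sorting of the cells. They call the pair of samples in each population biological samples made separately, without naming animals, so the p-values measure only the spread between these samples, part of which may be technical. The remaining 2 samples, of plasmacytoid dendritic cells (PDC), entered the model for its estimate of the spread and are given where they place a value.

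Conventional dendritic cells take up proteins, cut them in endosomes, and show the peptides to CD4 T cells on major histocompatibility complex (MHC) class II molecules. Natural killer (NK) cells read target cells with germline-encoded receptors that signal through adaptor proteins and tyrosine kinases, and they kill by releasing perforin and granzymes from lytic granules. The name IKDC claims both capacities for 1 cell, and the place of IKDC between the NK and dendritic lineages has been debated. The comparison therefore bears on which steps of each route were present as transcripts.

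The stretches before the transcription start of 4 MHC class II genes and 4 killing genes are printed first, because these are gene groups on which the comparison turns and each of the 8 genes was called. Sequences are from RefSeq for GRCm38.p6, 5′ to 3′ on the strand of the gene, and cover the 150 bases before the start. In the class II genes the capitals mark TGATTGG, the core of the Y box that the factor NF-Y binds in class II promoters. H2-Aa lies on the minus strand at chr17:34287824-34287973 and the others on the plus strand, H2-Eb1 at chr17:34305717-34305866, H2-DMb1 at chr17:34153041-34153190 and H2-Ob at chr17:34238755-34238904.
H2-Aa: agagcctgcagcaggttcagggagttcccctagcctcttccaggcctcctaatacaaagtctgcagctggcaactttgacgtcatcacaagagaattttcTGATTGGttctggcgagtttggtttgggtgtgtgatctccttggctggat
H2-Eb1: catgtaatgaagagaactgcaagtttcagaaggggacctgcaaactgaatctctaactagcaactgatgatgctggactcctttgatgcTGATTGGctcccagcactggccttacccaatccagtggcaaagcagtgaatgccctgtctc
H2-DMb1: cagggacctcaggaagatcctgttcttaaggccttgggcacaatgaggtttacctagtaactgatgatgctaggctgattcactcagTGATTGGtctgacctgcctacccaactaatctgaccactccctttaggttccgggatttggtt
H2-Ob: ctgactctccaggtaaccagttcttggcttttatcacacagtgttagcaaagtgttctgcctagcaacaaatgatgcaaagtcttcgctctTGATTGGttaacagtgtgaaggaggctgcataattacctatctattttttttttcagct

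In the killing genes the capitals mark TGTGGT or its reverse complement ACCACA, the core that Runx factors bind. Ncr1 lies on the plus strand at chr7:4337565-4337714, Klrk1 on the minus strand at chr6:129623865-129624014, Gzmb on the minus strand at chr14:56262335-56262484 and Prf1 on the plus strand at chr10:61297686-61297835.
Ncr1: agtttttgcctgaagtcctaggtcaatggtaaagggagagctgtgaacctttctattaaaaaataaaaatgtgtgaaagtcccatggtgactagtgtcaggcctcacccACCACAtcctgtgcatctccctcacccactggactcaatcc
Klrk1: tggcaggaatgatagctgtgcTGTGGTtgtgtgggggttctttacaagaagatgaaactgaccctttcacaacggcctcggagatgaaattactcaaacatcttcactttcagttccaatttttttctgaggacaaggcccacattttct
Gzmb: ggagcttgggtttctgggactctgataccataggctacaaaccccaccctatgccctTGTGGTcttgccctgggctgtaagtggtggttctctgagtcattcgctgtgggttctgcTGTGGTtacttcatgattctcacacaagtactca
Prf1: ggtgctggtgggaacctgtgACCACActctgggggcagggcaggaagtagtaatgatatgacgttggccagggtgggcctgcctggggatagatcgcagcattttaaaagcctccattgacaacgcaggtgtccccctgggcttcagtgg

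Motifs were searched on both strands of windows from 250 bases before to 50 bases after a start. TGATTGG stood in 5 of the 7 class II list members that were lower in IKDC and had a window (H2-Aa, H2-DMb1, H2-Eb1, H2-Oa and H2-Ob), and in 9% of all 27025 genes of the table. H2-Ab1, Cd74 and Ciita had no window. TGTGGT stood in 7 of 8 NK receptor genes that were higher in IKDC and had a window and in 6 of 7 such granule content genes, against 18.9% of all genes. Over all genes higher in IKDC the share was 22.3%, and over all genes lower it was 17.2%. The killing genes include gene families in clusters, whose windows share descent. The other motifs searched were ATTGG, which lies within TGATTGG, the T-box motif TCACACC, the Ets motif AGGAAGT and the Spi1 motif GAGGAAGT, which overlaps the Ets motif. TCACACC stood in 1 of 8 NK receptor windows and 1 of 7 granule windows, against 4.6% of all genes. AGGAAGT stood in 7 of 12 windows of monocyte and macrophage genes lower in IKDC (10.7% of all genes), and GAGGAAGT in 3 of 12 (3.69%). ATTGG stood in 6 of the 7 class II windows and 41.1% of all genes. The motifs were picked with the windows in view and are descriptions of the sequences only.

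The deposited signals are on a linear scale, set by the authors to a target of 150 on each array. The median signal was 51.7 to 76.2 on the IKDC arrays and 58.9 to 81.6 on the cDC arrays. Across tested probe sets, which are not independent, the IKDC samples correlated at 0.827 to 0.953 with each other, the cDC samples at 0.785 to 0.919, and an IKDC with a cDC sample at 0.723 to 0.776. For the Gapdh control, the signal of the 3′ probes over that of the 5′ probes, a ratio that shortened RNA raises, was 3.17 to 4.65 for IKDC and 4.05 to 5.84 for cDC, and its part in the results was not tested. Bacterial control probe sets with no added target reached 43.8 on U74A, 122.7 on U74B and 144.3 on U74C in these samples, so a signal under those levels on U74B and U74C is close to background and a bound set against 60 is less secure there. The number of arrays limits the precision. Levels of different probe sets are not on 1 scale. The summed signals given below for lists of other cell types add such levels and follow the brightest probe sets. They compare samples within a list only and do not measure the amount of a cell type.

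Differences are given in log2 units of signal + 16 as the estimate ± SE for IKDC minus cDC, n = 2 samples in each population. Each p-value came from limma with Benjamini-Hochberg adjustment across all tested probe sets, and a probe set below 0.05 was called. Of 23285 probe sets 625 were higher in IKDC (2.68%) and 680 lower (2.92%). Leaving out 1 of the 4 samples, which leaves a population with a lone sample assumed to vary like the others, gave 214 to 341 higher and 269 to 384 lower. The fewest higher were left without IKDC replicate 2 and the fewest lower without cDC replicate 2. With each gene represented by its brightest tested probe set, 427 of 12193 genes were higher (3.5%) and 496 lower (4.07%). The median difference over all genes was 0.01. Counts of called members of each gene list below are to be read beside the shares of 3.5% and 4.07%. For counts at an unadjusted p under 0.05 the share over all genes is not given, so they cannot be judged against those shares. Some genes, such as Btla and Csf1r, stand in several lists, so counts of different lists are not separate results. In each called gene both samples of 1 population stood above both of the other. The same held for some genes that did not pass, such as Id2 and Fos, so it adds no support to the calls. Differences of at least 4 log2 units were found in 13 of the higher and 29 of the lower genes. Of the called genes, 120 higher and 181 lower were called with each of the 4 samples left out. Of 329 called genes with several tested probe sets, 85 had a further probe set called the same way and 0 had one called the opposite way. Among genes described below, 1 further probe set did not pass for Csf1r, Skap1, Fyn, Zap70, Dgka, Rasgrp3, Il2rb, Ciita, H2-M3, Tap1, Cadm1, Psap, Apoe, Vcam1, Hspd1, Gbp7 and Bcl2l11, and 2 did not for H2-Aa, Ctse, Ccnd1, Klf3 and S100a10, beside those stated with their gene.

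The 5 genes chosen to mark the populations were picked with earlier results of these data known, so their values describe the samples and do not test the labels. As in every called gene, the populations did not overlap in them. Ncr1, the gene of the activating receptor NKp46, had signals of 1357 and 1608 in the IKDC samples and 38.8 and 40.1 in the cDC samples. The T-box factor gene Eomes, which NK cells need to mature, gave 1211 and 1316 against 40.5 and 20.3. Gzma, the gene of granzyme A, gave 4262 and 3590 against 135 and 223. In all 3 genes both IKDC samples were far above both cDC samples, and the PDC samples were at or below 84.2, 46.2 and 511. H2-Ab1, a class II chain gene, went the other way with 658 and 381 in IKDC against 8995 and 7779 in cDC, and the receptor gene Csf1r gave 75.3 and 62.3 against 1406 and 1237. The limma adjusted p was between 1.79e-05 for Ncr1 and 6.77e-05 for Gzma, and each call held with any of the 4 samples left out. The libraries labelled IKDC held transcripts of these 3 killer cell markers, and their H2-Ab1 signal was low but above the minimum of 60. Itgax, which encodes the dendritic marker CD11c, did not pass (limma adjusted p = 0.316) at 1249 and 1359 in IKDC and 1556 and 2614 in cDC.

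**Figure D1:**
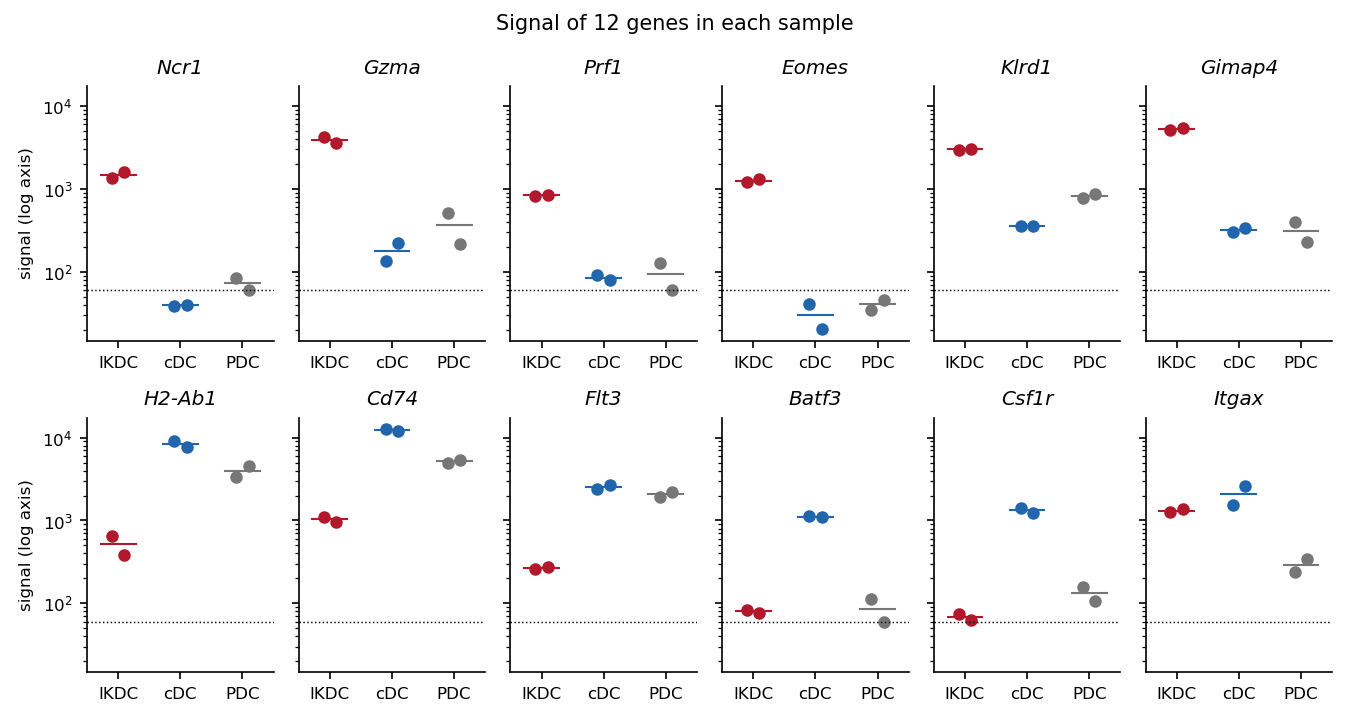
Signal (log axis) of 12 genes in each IKDC, cDC and PDC sample; each point is 1 sample, each short line the mean of the 2 samples of a population, and the dotted line the signal minimum of 60. The upper row shows 6 genes higher in IKDC, with Ncr1 at 1357 and 1608 against 38.8 and 40.1 in cDC, and the lower row 5 genes lower in IKDC and Itgax, which did not pass.

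NK receptor genes formed the first step of the killing route, and 13 of 16 tested members were higher in IKDC by limma and 0 lower (1 at an unadjusted p under 0.05), with a median difference of 2.95 against 0.01 over all genes. With 1 of the 4 samples left out 8 to 11 were higher, fewest without IKDC replicate 2. Klrd1, which encodes CD94, the partner chain of NKG2 receptors, had signals of 2950 and 3051 in IKDC and 360 and 362 in cDC (limma adjusted p = 4.98e-05). Klrk1, encoding the activating receptor NKG2D, gave 3516 and 3763 against 395 and 571, and its 2 further probe sets were called higher too. Cd2, an adhesion receptor of NK and T cells, gave 1937 and 1300 against 71.8 and 64. The replicates of each population lay close together in these genes, and the populations did not overlap. Among the 4 tested Ly49 receptors, which recognise MHC class I, Klra3 (3118 and 2872 against 173 and 204) and Klra7 (1141 and 949 against 68.5 and 76.1) were higher. Klra5 and Klra6 did not pass (limma adjusted p = 0.301 and 0.564). Ly49 genes are close paralogs, and a probe set may take up signal from several of them. Not every NK receptor was called: Cd244a, encoding the receptor 2B4, gave 360 and 399 in IKDC and 353 and 329 in cDC (0.15 ± 0.28, limma adjusted p = 0.838).

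Adaptors, which couple receptors to kinases, changed in both directions: of 21 tested, 6 were higher and 3 lower, with a median of 0.41. Sh2d2a, a lymphocyte adaptor, had 1066 and 1189 in IKDC and 41.5 and 26.5 in cDC, at least 18.8-fold higher when both cDC signals are set to the minimum of 60. The adaptor genes Skap1 and Skap2, which encode related proteins, went opposite ways. Skap1 gave 1389 and 1253 in IKDC against 92.9 and 89.1 (3.64 ± 0.35, limma adjusted p = 0.000264), and Skap2 gave 322 and 292 against 2063 and 2890 (-2.93 ± 0.31, limma adjusted p = 0.000235). Themis2, an adaptor of B and myeloid cells, was lower at 390 and 417 against 7147 and 5739. Tyrobp, which encodes the DAP12 adaptor used by receptors of both NK and myeloid cells, did not pass at 2931 and 2953 against 3525 and 1867 (0.20 ± 0.32, limma adjusted p = 0.802). Its populations overlapped, because 1 cDC sample was above and the other below both IKDC samples. Hcst, encoding the DAP10 adaptor of NKG2D and named here after its values were seen, was higher at 1319 and 1680 against 359 and 120 (limma adjusted p = 0.00394).

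The proximal tyrosine kinases and phosphatases also changed in both directions, with 5 of 21 higher and 4 lower (median 0.46). Leaving out 1 sample left 4 to 5 higher but 2 lower in each case. The higher genes were Txk, Fyn, Zap70, Ptpn22 and Jak1, and the lower ones Ptpro, Fgr, Btk and Src. Txk, a Tec family kinase of T and NK cells, had 1352 and 1220 against 19.2 and 47.6, at least 21.4-fold higher, although its further probe set did not pass. Zap70, the kinase recruited to phosphorylated receptor chains in T and NK cells, gave 1046 and 1311 against 170 and 59.6 (3.32 ± 0.40, limma adjusted p = 0.000467). Syk, the related kinase that myeloid and NK cells share, did not pass at 803 and 945 against 900 and 1027 (-0.14 ± 0.28, limma adjusted p = 0.846). Ptpro, a receptor tyrosine phosphatase gene, gave 27.2 and 24.2 against 424 and 469, at least 7.43-fold lower. Fyn, a Src family kinase gene, was higher at 1952 and 1636 against 204 and 241, and the PDC samples stood at 1336 and 2558, so its level in IKDC was not apart from that in PDC.

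Downstream, 8 of 29 tested genes of the phospholipase C, Vav and Ras pathway were higher and 1 was lower (median 0.59). This count fell to 2 or 3 whichever of the 4 samples was left out, with 2 left without IKDC replicate 1, IKDC replicate 2 or cDC replicate 2. Dgka, a kinase that removes the second messenger diacylglycerol, gave 802 and 654 against 59.6 and 84.4 and was called in each of these cases (3.09 ± 0.34, limma adjusted p = 0.000282). Rasgrp3, a Ras activator gene of B and myeloid cells, was the lower gene at 215 and 108 against 1118 and 1513. Prkch and Rasa3 were called with all samples at 1.58 ± 0.26 and 1.59 ± 0.28. Prkch lost its call without IKDC replicate 1 or cDC replicate 1 (limma adjusted p up to 0.0798), and Rasa3 without IKDC replicate 1, IKDC replicate 2 or cDC replicate 2 (up to 0.0705).

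**Figure D2:**
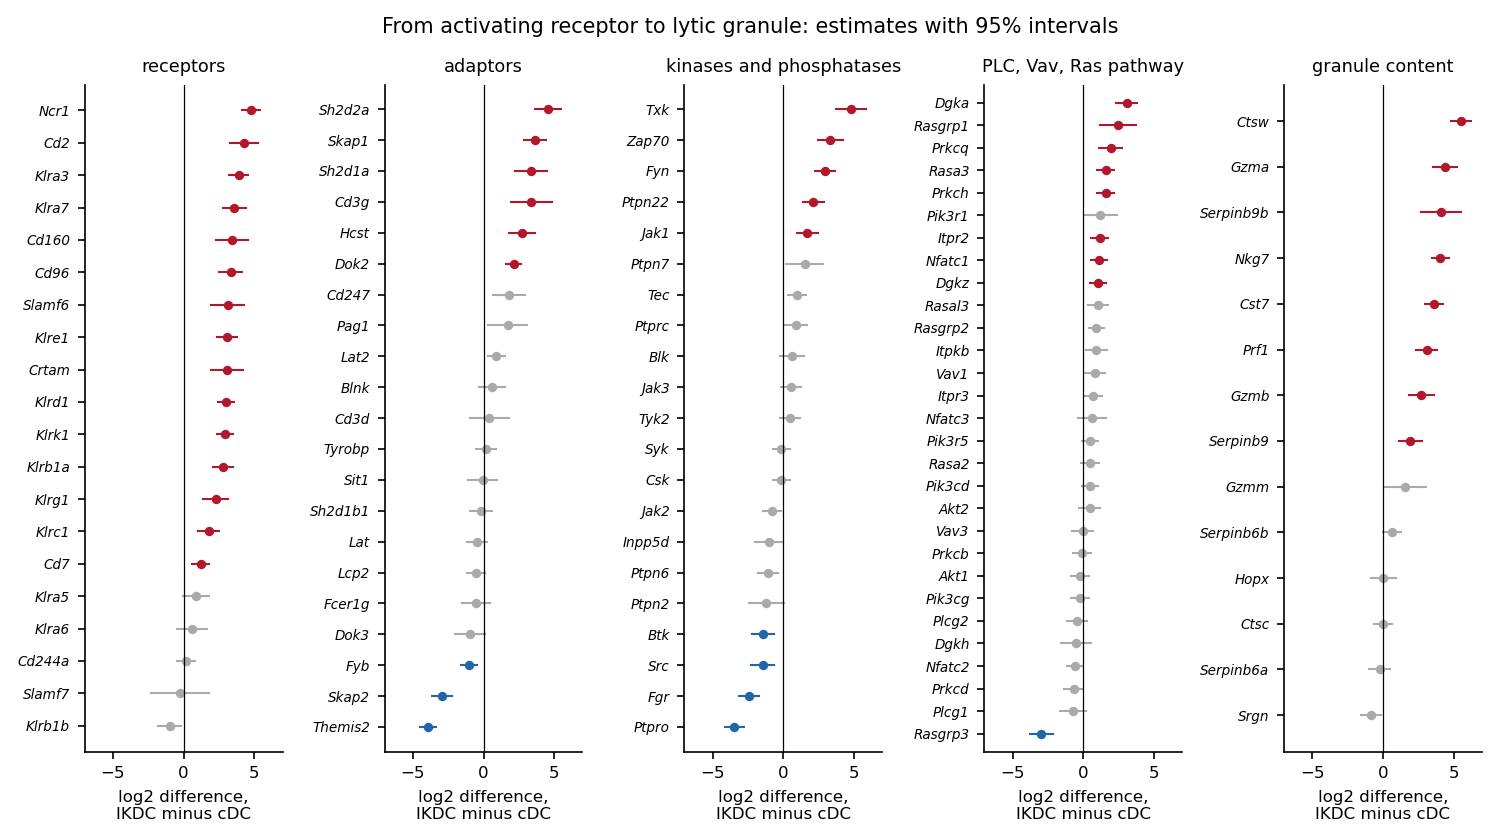
Log2 difference of IKDC minus cDC with its 95% interval for each tested gene of 6 lists, from receptors (NK and Ly49 receptors together) through adaptors, kinases and phosphatases and the phospholipase C, Vav and Ras pathway to lytic granule content; red points were called higher in IKDC, blue lower and grey not called. In the first and last panels called genes lie right of 0, among the adaptors and kinases they lie on both sides.

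The content of lytic granules was higher in IKDC in 8 of 14 tested genes by limma and lower in 0, or 1 at an unadjusted p under 0.05. The median was 2.31, and 6 to 8 were higher with 1 of the 4 samples left out. Ctsw, a protease gene of cytotoxic cells and the largest increase under the naming rule, had 1677 and 1387 in IKDC and 11.3 and 26.0 in cDC, at least 25.4-fold higher. The granule membrane gene Nkg7 gave 30720 and 34971 against 1672 and 2281 (4.06 ± 0.26, limma adjusted p = 2.58e-05), with its 2 further probe sets called higher as well. Cst7, encoding cystatin F, an inhibitor that restrains granule cathepsins, gave 1080 and 1062 against 70.7 and 73.6. Prf1, encoding perforin, gave 826 and 852 against 90.8 and 80.2, and Gzmb, named because its sequence is printed, gave 772 and 557 against 80.4 and 94.5. In these genes the IKDC samples differed from each other by far less than from cDC. Serpinb9b, a granzyme inhibitor gene on U74C, was called at 456 and 489 against 19.0 and 8.1, but not without IKDC replicate 1 or IKDC replicate 2 (limma adjusted p up to 0.0619). Srgn, which encodes the granule proteoglycan serglycin found in many leukocytes, did not pass at 812 and 440 against 1115 and 1086 (limma adjusted p = 0.157).

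The machinery that moves and fuses granules did not follow their content. Of 27 tested genes 0 were higher by limma (3 at an unadjusted p under 0.05) and 2 lower, Lyst and Vamp8, with a median of 0.01, and both calls were lost in 3 or more of the leave-out fits. Lyst, a lysosomal trafficking gene, gave 204 and 265 in IKDC against 677 and 687 in cDC (limma adjusted p = 0.0115, up to 0.107 without 1 sample). The vesicle fusion gene Vamp8 gave 957 and 882 against 1986 and 2112 (limma adjusted p = 0.0237, up to 0.195). Lamp1, a lysosomal membrane gene, did not pass at 2057 and 1905 against 2084 and 2405 (-0.18 ± 0.26, limma adjusted p = 0.779), and the actin regulator gene Coro1a did not pass either (-0.55 ± 0.26, limma adjusted p = 0.284).

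Among 21 tested death ligands and receptors, 2 were higher (Cd27 and Fasl) and 2 lower (Cd40 and Tnf). Over all genes the shares were 3.5% higher and 4.07% lower. Fasl, the ligand gene of the death receptor Fas, had 558 and 323 against 15.4 and 40.2, at least 7.07-fold higher, and lost its call narrowly without IKDC replicate 1 (limma adjusted p = 0.0504). Cd27, a co-stimulatory receptor of lymphocytes, gave 758 and 854 against 117 and 78.0 and kept its call. Tnf was lower at 167 and 156 against 695 and 467 (limma adjusted p = 0.0222), a call lost whichever of the 4 samples was left out (up to 0.186). Cd40, which receives T cell help, was at least 3.88-fold lower, and its call was lost without IKDC replicate 2 or either cDC sample (limma adjusted p up to 0.118).

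Of 17 tested genes of interferon gamma and the pathway that induces it, 5 were higher and 2 lower (median 0.35). With 1 of the 4 samples left out 3 to 4 were higher, fewest without IKDC replicate 1, IKDC replicate 2 or cDC replicate 1, and 0 to 1 lower, with 0 without IKDC replicate 1, IKDC replicate 2 or cDC replicate 2. Stat4, which transmits interleukin 12 signals, had 1155 and 1197 in IKDC against 122 and 83.3 (3.35 ± 0.40, limma adjusted p = 0.000465). Il18r1, an interleukin 18 receptor chain gene, gave 457 and 588 against 88.8 and 65.0 (2.54 ± 0.31, limma adjusted p = 0.000585). The partner chain gene Il18rap gave 257 and 205 against 26.5 and 37.5, but lost its call without IKDC replicate 1, IKDC replicate 2 or cDC replicate 1 (limma adjusted p up to 0.104). Irf1 did not pass at 1093 and 673 against 457 and 539 (limma adjusted p = 0.185). Among 20 cytokine receptor and Stat genes of the gamma chain and related families 3 were higher and 5 lower, or 3 to 4 lower with 1 of the 4 samples left out, fewest without IKDC replicate 1 or cDC replicate 1. The interleukin 2 and 15 receptor gene Il2rb gave 2924 and 4343 against 401 and 504, whereas the myeloid growth factor receptor gene Csf2rb gave 189 and 240 against 1970 and 2385 (-3.25 ± 0.26, limma adjusted p = 8.3e-05). Il1r2, the decoy receptor gene for interleukin 1, was at least 12.3-fold lower at 25.4 and 30.3 against 873 and 625.

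Gimap genes, a cluster encoding GTPases that sustain lymphocyte survival, were the list with the largest share of called members: 8 of 8 were higher, with a median of 3.42 (7 to 8 with 1 of the 4 samples left out). Gimap4 had 5177 and 5372 in IKDC against 303 and 335 in cDC, Gimap7 3103 and 2904 against 241 and 148, and Gimap5 2327 and 3136 against 287 and 211. Gimap1 gave 386 and 522 against 29.3 and 58.2, at least 7.49-fold higher. Both IKDC samples lay above both cDC samples in each of these genes, and both PDC samples were below both IKDC samples. Against cDC the PDC samples differed by gene, with 399 and 228 for Gimap4 but 633 and 411 for Gimap5 and 143 and 174 for Gimap1. The further probe set of Gimap4 did not pass. Since the genes lie in 1 cluster and are related in sequence, they are not independent of each other.

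NK lineage transcription factors were higher in 8 of 33 tested genes and lower in 0 by limma, also at an unadjusted p under 0.05 (median 0.30; 4 to 6 with 1 of the 4 samples left out, fewest without IKDC replicate 2). Besides Eomes and Stat4, Myb, a factor of immature blood cells, had 659 and 503 against 33.5 and 62.7 (3.25 ± 0.44, limma adjusted p = 0.00113). The E protein gene Tcf12 gave 966 and 981 against 148 and 192 (2.42 ± 0.39, limma adjusted p = 0.0032), but its further probe set did not pass. Id2, an inhibitor of E proteins that both NK cells and dendritic cells need, did not pass at 3781 and 3011 against 2576 and 2810 (0.32 ± 0.30, limma adjusted p = 0.624), while the PDC samples were at 433 and 253. Tox2 did not pass either (limma adjusted p = 0.859), with overlapping populations.

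Genes that change as NK cells mature were higher in 13 of 29 and lower in 2, Tmem176a and Tmem176b (median 1.22; 6 to 10 higher with 1 of the 4 samples left out, fewest without IKDC replicate 2). Thy1, a surface glycoprotein of lymphocytes, had 397 and 281 against 21.2 and 18.7, at least 5.57-fold higher. The chymase gene Cma1 gave 515 and 359 against 65.8 and 89.8 (2.26 ± 0.31, limma adjusted p = 0.0012). Tmem176a, a gene of antigen-presenting cells, gave 75.8 and 148 against 1030 and 1015 (-3.08 ± 0.33, limma adjusted p = 0.000261). Of 21 receptors for chemokines and lipid signals 3 were higher (S1pr4, Cxcr3 and S1pr5) and 4 lower, with 0 to 2 higher (0 without IKDC replicate 2) and 0 to 3 lower (0 without IKDC replicate 1 or either cDC sample) when 1 of the 4 samples was left out. S1pr5, which guides mature NK cells out of tissues, gave 1381 and 1608 against 582 and 379, but was not called without IKDC replicate 1, IKDC replicate 2 or cDC replicate 2 (limma adjusted p up to 0.131). S1pr4 was at least 2.93-fold higher and was not called without IKDC replicate 2 (limma adjusted p = 0.0856). Cxcr3 (545 and 604 against 218 and 208, limma adjusted p = 0.0111) was not called whichever of the 4 samples was left out (up to 0.126). The chemokine receptor gene Ccr2 did not pass at 1517 and 2453 against 944 and 1641 (limma adjusted p = 0.371).

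Genes for presentation on class II and its peptide loading were lower in IKDC in 10 of 18 tested members and higher in 0 by limma, or 3 at an unadjusted p under 0.05 (median -1.78; 7 to 9 lower with 1 of the 4 samples left out). Cd74, the invariant chain gene, had 1111 and 950 in IKDC against 12644 and 11873 in cDC (-3.56 ± 0.26, limma adjusted p = 3.08e-05). The beta chain gene H2-Eb1, whose upstream sequence is printed above, gave 1186 and 850 against 15067 and 13173 (-3.79 ± 0.29, limma adjusted p = 3.08e-05). H2-DMb1, encoding a chain of the DM complex that exchanges peptides, gave 224 and 135 against 2542 and 2902. IKDC replicate 1 was above IKDC replicate 2 in each of these genes, by far less than the gap to cDC, and the PDC samples lay in between, at 4579 and 5991 for H2-Eb1. H2-Aa (2743 and 1560 against 21676 and 15005) and H2-Ob (132 and 72.5 against 337 and 465) are given because their sequences are printed. The call of H2-Ob was lost without IKDC replicate 2 or cDC replicate 2 (limma adjusted p up to 0.131).

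Among the regulators of class II genes described here only Ciita was called. Rfx5, Rfxap and Rfxank also had negative estimates, and whether Ciita differed more than these was not tested. Ciita, the transactivator on which class II transcription depends, was named after its values were seen. It was lower at 62.5 and 78.7 in IKDC against 312 and 228 in cDC (-1.71 ± 0.38, limma adjusted p = 0.0209), a call lost when any 1 of the 4 samples was left out (up to 0.179). The factors that bind the class II promoter itself did not pass: Rfx5 gave 1188 and 738 against 1285 and 1937 (-0.74 ± 0.36, limma adjusted p = 0.307). Rfxap (-0.40 ± 0.33) and Rfxank (-0.35 ± 0.31), also named after their values were seen, did not pass either (limma adjusted p = 0.575 and 0.6). Nor did Creb1, which binds the X2 element (0.69 ± 0.26, limma adjusted p = 0.183).

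Of 22 tested class I and loading genes 1 was higher (H2-Q4) and 4 lower (H2-M3, H2-M2, Tap1 and Psmb9), with a median of -0.26, beside 3.5% higher and 4.07% lower over all genes. With 1 of the 4 samples left out 0 were higher and 1 to 2 lower, fewest without IKDC replicate 1. H2-K1, a classical class I chain gene, gave 9094 and 7468 in IKDC against 7508 and 7784 in cDC (0.11 ± 0.27, limma adjusted p = 0.878), and H2-D1 gave 8685 and 7349 against 3789 and 7552 (limma adjusted p = 0.403). The populations overlapped in both. Tap1, a subunit of the peptide transporter, was lower at 450 and 462 against 1066 and 1258, and Psmb9, an immunoproteasome subunit, at 483 and 545 against 1048 and 1178. Both calls were lost whichever of the 4 samples was left out (limma adjusted p up to 0.122 and 0.243). The nonclassical gene H2-M3 kept its call at 372 and 381 against 1423 and 1329 (-1.83 ± 0.26, limma adjusted p = 0.00134). H2-M2 was lower at 66.1 and 94.8 against 324 and 362, but not called without IKDC replicate 1 (limma adjusted p = 0.0591).

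Receptors for uptake of antigen and microbes were lower in 10 of 22 tested genes and higher in 0 by limma, also at an unadjusted p under 0.05 (median -1.57; 5 to 7 lower with 1 of the 4 samples left out, fewest without cDC replicate 2). The inhibitory receptor gene Pirb had 133 and 149 against 2784 and 2365, but PDC samples of 2726 and 3822. Cd209a, a C-type lectin gene of dendritic cells, gave 212 and 166 against 2450 and 2105 (-3.49 ± 0.26, limma adjusted p = 3.77e-05). Sirpa, which marks CD11b dendritic cells and macrophages, gave 16 and 23.1 against 488 and 613, at least 9.12-fold lower. Each of these genes was dim in both IKDC samples and bright in both cDC samples. Itgb2, which encodes the CD18 integrin chain that pairs with CD11c, did not pass at 1785 and 1747 against 988 and 1441 (limma adjusted p = 0.481). Toll-like receptors and other sensors were lower in 8 of 26 and higher in 1, Ddx58 (median -0.54; 3 to 5 lower with 1 of the 4 samples left out, fewest without cDC replicate 2, and 0 higher whichever of the 4 was left out). Ly86, which encodes MD-1, gave 140 and 141 against 1908 and 1698. Tlr2 gave 542 and 556 against 1796 and 2252 (-1.84 ± 0.28, limma adjusted p = 0.00311). Tlr3 and Tlr13, sensors of RNA, were at least 7.82-fold and 5.99-fold lower on U74B, but neither was called without cDC replicate 2 (limma adjusted p = 0.0556 and 0.0546).

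Endosomal proteases and their inhibitors were lower in 9 of 21 tested genes (median -0.65; 6 to 8 with 1 of the 4 samples left out) and higher in 2, Ctsd and Ctse. Cst3, encoding the inhibitor cystatin C, had 965 and 871 in IKDC against 10852 and 8187 in cDC (-3.34 ± 0.27, limma adjusted p = 3.93e-05). Ctsh, a cathepsin gene, gave 154 and 103 against 1172 and 2134, and the aspartic protease gene Napsa gave 700 and 606 against 5969 and 4718. The aspartic proteases cathepsin D and E went the other way. Ctsd gave 2369 and 2646 in IKDC against 554 and 485 (2.24 ± 0.26, limma adjusted p = 0.000389), and Ctse 691 and 997 against 188 and 220 (1.95 ± 0.28, limma adjusted p = 0.00172). Both were named after their values were seen, and both calls held with each of the 4 samples left out. Lysosomal hydrolases and the proton pump were lower in 8 of 41 genes and higher in 0 by limma, or 1 at an unadjusted p under 0.05 (median -0.44; 4 to 5 lower with 1 of the 4 samples left out, fewest without IKDC replicate 1, IKDC replicate 2 or cDC replicate 2). Psap, encoding prosaposin, gave 1626 and 1157 against 6435 and 6525 (-2.23 ± 0.28, limma adjusted p = 0.000601), and the pump gene Tcirg1 did not pass (limma adjusted p = 0.139).

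Co-stimulation and maturation genes were lower in 7 of 28 and higher in 1, Icam2 (median -0.93; 3 to 5 lower with 1 of the 4 samples left out, fewest without cDC replicate 2). Cd86, the B7 co-stimulator gene, had 11.4 and 26.4 against 950 and 1115, at least 17.2-fold lower on U74B. Cd274, encoding the inhibitory ligand PD-L1, gave 217 and 129 against 1000 and 1273 (-2.64 ± 0.32, limma adjusted p = 0.00111), and the inhibitory receptor gene Btla gave 228 and 83.8 against 1263 and 2227. Icam2, an adhesion ligand gene, was higher at 361 and 265 against 14.3 and 37.6, at least 5.16-fold higher. Cd52, a leukocyte surface gene, did not pass, with 1925 and 1874 against 1754 and 1886 (0.06 ± 0.26, limma adjusted p = 0.933).

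**Figure D3:**
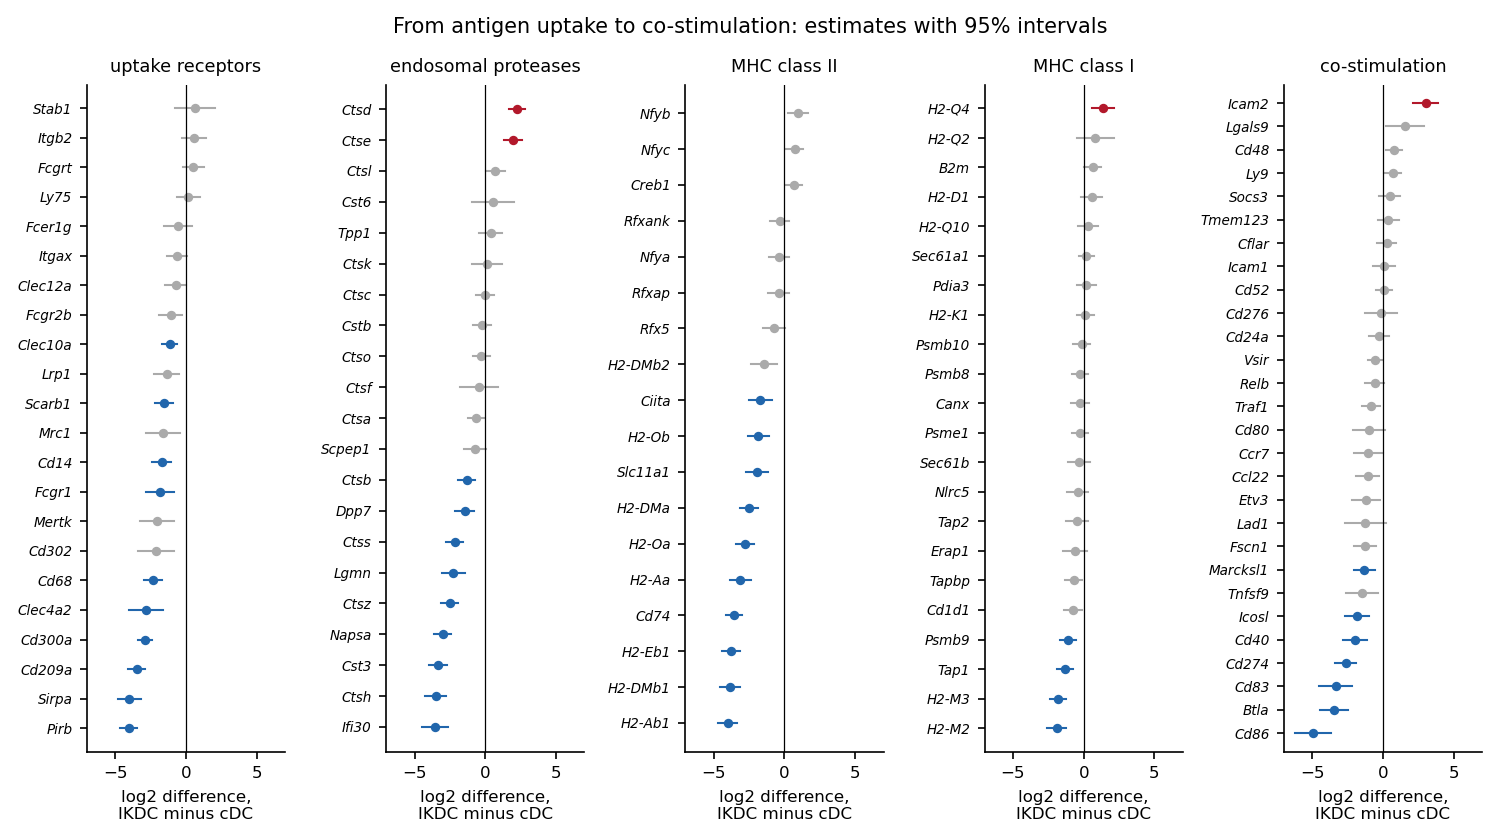
Log2 difference of IKDC minus cDC with its 95% interval for each tested gene of the lists for uptake receptors, endosomal proteases and inhibitors, MHC class II, MHC class I and co-stimulation; red points were called higher in IKDC, blue lower and grey not called. In the class II panel the chains and Cd74 lie left of 0. Rfx5, Rfxap and Rfxank also lie left of 0 but are grey, and Creb1 is grey and lies right of 0. In the class I panel 5 of 22 genes are coloured.

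Genes of the dendritic cell subsets were lower in IKDC for each subset list: 11 of 19 CD8 dendritic cell genes (median -1.77), 11 of 28 CD11b dendritic cell genes (median -0.83) and 14 of 24 genes shared by the subsets (median -1.46). In the CD8 list Xcl1 was higher (limma adjusted p = 0.0122, not called without IKDC replicate 1, IKDC replicate 2 or cDC replicate 2), in the CD11b list S100a10, and in the shared list 0 by limma, also at an unadjusted p under 0.05. With 1 of the 4 samples left out the counts of lower genes were 7 to 10, 8 to 9 and 5 to 6, with 7 CD8 genes without cDC replicate 2 and 5 shared genes without IKDC replicate 2 or cDC replicate 2. Batf3, a factor that CD8 dendritic cells require, had 83.2 and 77.3 against 1124 and 1099 (-3.55 ± 0.32, limma adjusted p = 8.17e-05). Wdfy4, needed for cross-presentation, gave 332 and 323 against 7329 and 6080, although its further probe set did not pass. Cd8a itself gave 20.2 and 21.6 against 335 and 754, at least 8.38-fold lower. Cadm1, an adhesion gene of CD8 dendritic cells, gave 213 and 192 against 3579 and 4341, and PDC samples of 6473 and 7591. In the shared list, the growth factor receptor gene Flt3 gave 261 and 278 against 2388 and 2705 (-3.16 ± 0.26, limma adjusted p = 3.77e-05), and Hmgn3 gave 224 and 233 against 1157 and 1745. Cd24a, a surface gene of many blood cells, did not pass (-0.29 ± 0.32, limma adjusted p = 0.68).

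Plasmacytoid dendritic cell genes did not move as a block: 2 of 26 were higher (Cox6a2 and Klk1) and 6 lower, with a median of -0.13 (0 to 1 higher and 2 to 3 lower with 1 of the 4 samples left out, 0 higher without either IKDC sample, and 2 lower without either IKDC sample or cDC replicate 1). The factor gene Tcf4, which plasmacytoid cells need, did not pass at 472 and 434 in IKDC and 474 and 553 in cDC (limma adjusted p = 0.758), with PDC at 3220 and 4106. Irf7, the interferon regulatory factor gene, did not pass at 5748 and 7099 against 6494 and 7375 (limma adjusted p = 0.859), with PDC at 18788 and 27391. In both genes every IKDC and cDC sample was below both PDC samples. Cox6a2, a subunit gene of cytochrome c oxidase, was higher at 211 and 235 against 53.3 and 75.9, with PDC at 3107 and 2397. Its call was lost without IKDC replicate 1, IKDC replicate 2 or cDC replicate 1 (limma adjusted p up to 0.0882).

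Myeloid transcription factors were lower in 12 of 49 tested genes and higher in 3, Myc, Klf3 and Gfi1 (median -0.72; 7 to 9 lower with 1 of the 4 samples left out, fewest without IKDC replicate 2 or cDC replicate 2, and 0 to 1 higher, 0 without IKDC replicate 2 or either cDC sample). Spi1, encoding PU.1, which directs myeloid development, had 50.3 and 86.2 against 759 and 616 (-3.09 ± 0.32, limma adjusted p = 0.00019). Irf5, which drives inflammatory cytokine genes, gave 120 and 102 against 588 and 514, and the corepressor gene Cbfa2t3 100.3 and 196 against 1354 and 1030. The leading increases besides those named elsewhere were Samd3, at 6375 and 9275 against 287 and 365, and Ctla2b, at 1182 and 1006 against 32.8 and 70. The largest decreases under the naming rule were Sirpb1a (23 and 89.3 against 6158 and 5622), the elastase gene Mmp12 (38.1 and 30.6 against 1854 and 2780) and Plbd1 (134 and 127 against 5953 and 6624). Mmp12 was at least 37.8-fold lower. Sirpb1a lies on U74C, where both IKDC signals were under the level that bacterial controls reached, so its size is less secure. The protease gene Adam8 gave 4.2 and 10.1 against 674 and 621, at least 10.8-fold lower, and Alox5ap, needed for leukotriene synthesis, gave 285 and 283 against 5773 and 6480 (-4.35 ± 0.25, limma adjusted p = 2.58e-05).

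Monocyte and macrophage markers were lower in 20 of 25 and higher in 0 by limma, also at an unadjusted p under 0.05 (median -2.62; 12 to 16 lower with 1 of the 4 samples left out, fewest without cDC replicate 2). The lysozyme gene Lyz2 had 115 and 24.6 in IKDC against 1719 and 1520 in cDC, and Apoe had 234 and 44.7 against 3142 and 2355. Mpeg1, encoding a pore-forming protein of phagocytes, gave 890 and 368 against 8088 and 7741. The summed signal of the 25 genes was 5350 and 5767 in IKDC, 27763 and 35534 in cDC and 28956 and 27664 in PDC. In PDC Mpeg1 alone gave 16446 and 12325 of this sum, while Csf1r gave 158 and 107 and Lyz2 242 and 116. Of the 25 genes 9 were under 60 in both IKDC samples. Ccr2 did not follow the list, as given above. The cDC samples differed from each other in 3 of its genes that red pulp macrophages express, singled out after their values were seen. Vcam1 gave 188 in cDC replicate 1 and 1302 in cDC replicate 2, Slc40a1 1071 and 4946, and Spic 93.8 and 249. Vcam1 and Spic were not called without IKDC replicate 1, IKDC replicate 2 or cDC replicate 2 (limma adjusted p up to 0.0852 and 0.197). The part of these transcripts in the other differences was not tested, but the counts of lower genes with 1 sample left out stand beside each list. In bulk samples, fewer cells of a type and less RNA per cell cannot be told apart.

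Transcripts of cytokine and chemokine genes differed between the populations in both directions, and protein was not measured. Of 10 tested inflammatory and dendritic cell cytokine genes, 4 were lower (Il1b, Ebi3, Tnf and Il12b) and 1 higher (Flt3l), with 2 lower and 0 higher whichever of the 4 samples was left out. Il1b had 41.9 and 25.1 in IKDC against 1243 and 1620 in cDC, at least 23.6-fold lower, and Ebi3, an interleukin 27 and 35 subunit gene, was at least 6.7-fold lower. Flt3l, encoding the ligand of Flt3, gave 91.3 and 97.3 against 8.9 and 14.9 (limma adjusted p = 0.0231, up to 0.219 without 1 of the 4 samples). Of 17 chemokine genes 4 were higher (Ccl5, Xcl1, Ccl3 and Ccl4) and 6 lower (median -1.07). With 1 of the 4 samples left out 1 to 2 were higher, fewest without IKDC replicate 1 or cDC replicate 2, and 2 to 5 lower, fewest without cDC replicate 2. Ccl5, a chemokine gene of cytotoxic lymphocytes, gave 12796 and 11069 against 1390 and 1746 (2.92 ± 0.40, limma adjusted p = 0.00127). Cxcl9 gave 10.3 and 3.3 against 316 and 318, at least 5.28-fold lower, and Ccl9 was at least 7.1-fold lower.

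In the Bcl2 family and caspases 2 of 27 were higher (Bcl2 and Bcl2l11) and 2 lower (Pmaip1 and Bmf). Over all genes the shares were 3.5% higher and 4.07% lower. Bcl2, the survival gene, had 1490 and 1422 in IKDC against 181 and 287 (2.59 ± 0.36, limma adjusted p = 0.00167), with 3 further probe sets called higher and 2 not called. Pmaip1, encoding the death promoter Noxa, gave 229 and 85.6 against 3484 and 7952 (-5.06 ± 0.47, limma adjusted p = 0.00022), and Bmf, another BH3-only gene, gave 378 and 308 against 1454 and 1432. Bcl2l11 encodes Bim, which also promotes death. It was higher at 675 and 808 against 334 and 327 and lost its call whichever of the 4 samples was left out (limma adjusted p up to 0.283). Of 32 immediate early and heat shock genes 6 were lower and 1, Hspd1, higher, a call held only without cDC replicate 2 (1 to 5 lower with 1 of the 4 samples left out, fewest without cDC replicate 2). Jun gave 564 and 397 against 1598 and 2115 and was not called without IKDC replicate 2 (limma adjusted p = 0.052), and Atf3 gave 673 and 212 against 7177 and 7790 and was not called without cDC replicate 2 (0.0509). Fos did not pass at 7103 and 5858 against 8694 and 7605 (limma adjusted p = 0.564).

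Beside 3.5% higher and 4.07% lower over all genes, 46 cell cycle genes held 2 higher (Cdkn2d and Cdc25b) and 1 lower (Ccnd1). The median of the 46 was 0.32. At an unadjusted p under 0.05, 15 were higher and 2 lower, and the share of all genes at this looser threshold is not given. Cdc25b was not called without IKDC replicate 2 or either cDC sample (limma adjusted p up to 0.0923). Ccnd1, the cyclin D1 gene, had 59.4 and 85.0 against 665 and 784 (-3.08 ± 0.30, limma adjusted p = 0.000117), and Cdkn2d, a cell cycle inhibitor gene, gave 406 and 432 against 26.6 and 72.1. Interferon-stimulated genes split into 5 higher and 5 lower of 33 (1 to 3 and 2 to 3 with 1 of the 4 samples left out, with 1 higher without IKDC replicate 2, and 2 lower without either IKDC sample or cDC replicate 2). The higher ones were 4 guanylate binding protein genes (Gbp2, Gbp3, Gbp6 and Gbp7) and Ifi47. Gbp3 gave 542 and 536 against 134 and 147 (1.83 ± 0.28, limma adjusted p = 0.00234). The antiviral membrane gene Ifitm3 went the other way at 65.5 and 91.8 against 1100 and 837 (-3.38 ± 0.30, limma adjusted p = 6.78e-05). Among 44 actin and cytoskeleton genes 3 were higher and 8 lower, with 4 to 5 lower when 1 of the 4 samples was left out, fewest without IKDC replicate 1, IKDC replicate 2 or cDC replicate 1. Rac2, the leukocyte Rac GTPase gene, gave 6299 and 6141 against 1494 and 1884, and the actin-severing gene Gsn was at least 5.52-fold lower.

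Among metabolic and housekeeping lists, of 34 cytosolic ribosomal protein genes 0 were called by limma, also at an unadjusted p under 0.05 (median 0.12), and of 59 oxidative phosphorylation genes 2 were higher and 1 lower (median 0.11), with 0 called when any 1 of the 4 samples was left out. Beside 3.5% higher and 4.07% lower over all genes, proteasome subunits gave 1 higher and 1 lower of 38. Glycolysis, pentose phosphate and citrate cycle genes gave 2 higher and 3 lower of 43. With any 1 of the 4 samples left out 0 proteasome genes were called, and 0 to 1 of the latter genes in each direction. Cholesterol, fatty acid and eicosanoid genes were lower in 5 of 41 and higher in 1 (median -0.41; 2 to 3 lower with 1 of the 4 samples left out, fewest without cDC replicate 1). NADPH oxidase, antioxidant and heme genes were lower in 5 of 29 and higher in 1 (median -0.02; 2 to 3 lower with 1 left out, fewest without IKDC replicate 2 or either cDC sample). Cybb, the catalytic oxidase subunit gene, gave 264 and 164 against 1642 and 2091 (-3.06 ± 0.27, limma adjusted p = 0.000174). Among the bright genes whose 95% interval lay within 1 log2 unit of 0 (2754 genes in all), the ribosomal gene Rps4x had 9781 and 8489 in IKDC against 10098 and 8068 in cDC (0.01 ± 0.29, limma adjusted p = 0.988). The lysosomal membrane gene Laptm5 had 45830 and 51003 against 63661 and 60996 (-0.37 ± 0.22, limma adjusted p = 0.427). Mdh2, a citrate cycle enzyme gene, was lower at 1499 and 1388 against 3656 and 3331, but not when any 1 of the 4 samples was left out (limma adjusted p up to 0.131).

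**Figure D4:**
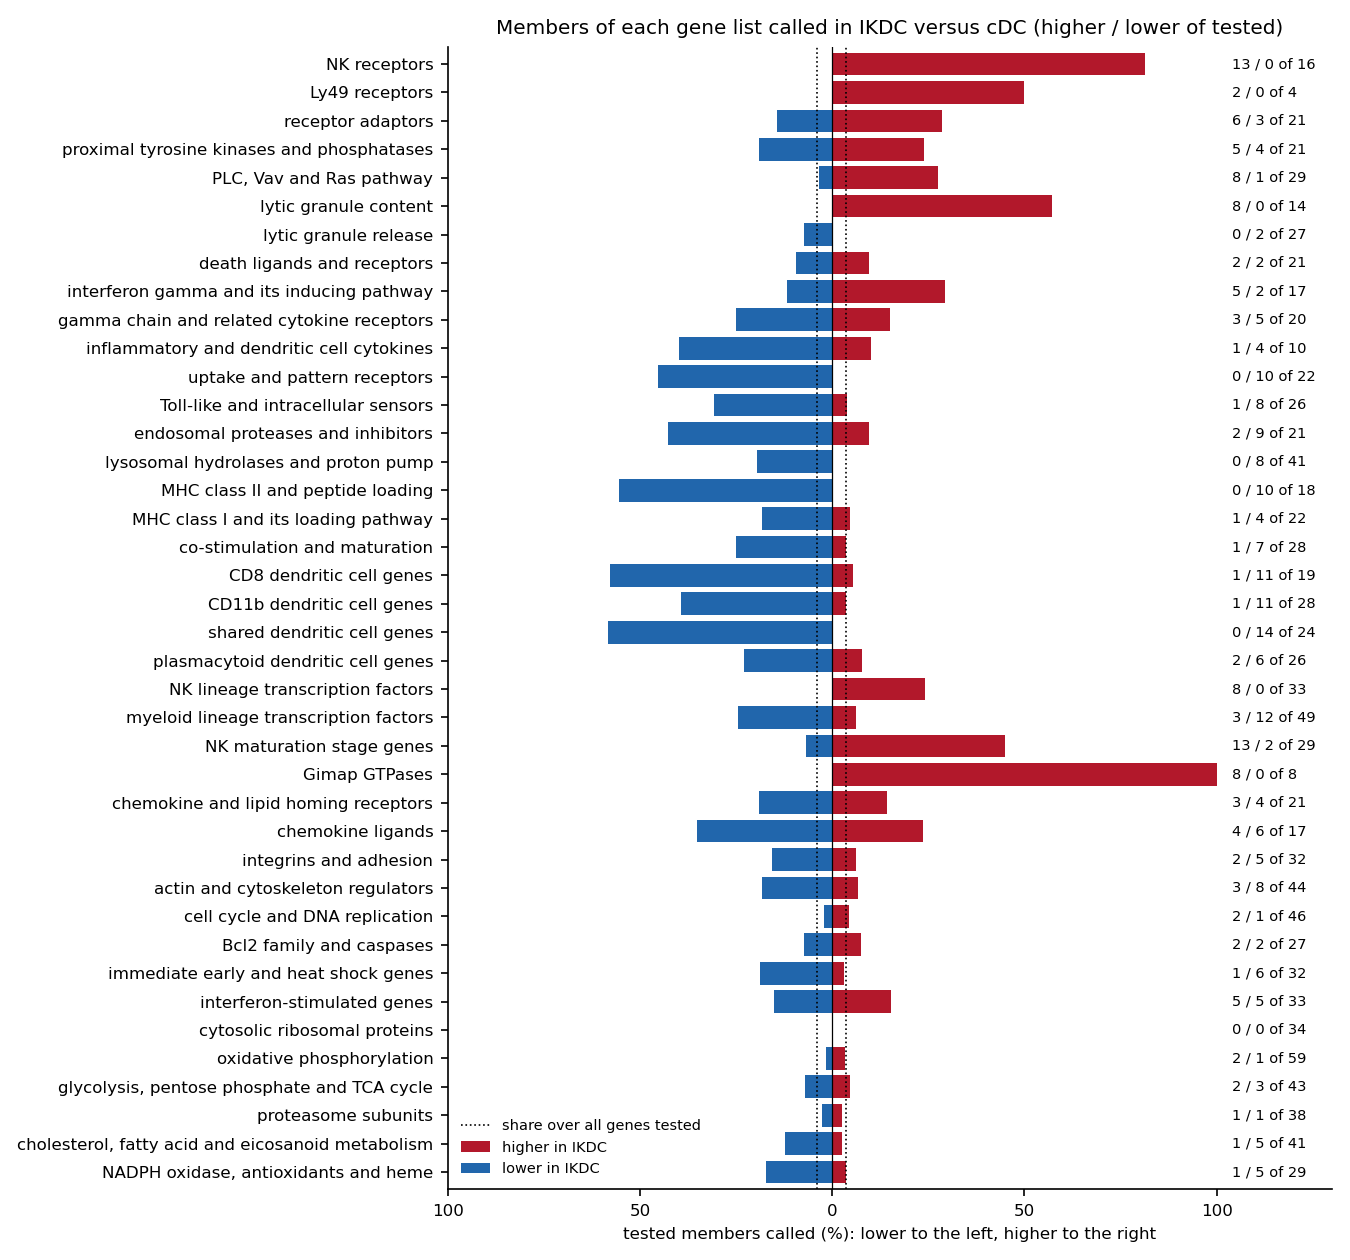
Percent of the tested members of each of 40 gene lists called in IKDC against cDC, red to the right for higher and blue to the left for lower, with the counts (higher / lower of tested) at the right; dotted lines mark the shares over all genes, 3.5% higher and 4.07% lower. The Gimap and NK receptor lists reach furthest right, the shared and CD8 dendritic cell lists and class II furthest left, and the ribosomal protein list has no bar.

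Transcripts typical of cells outside both lineages were present in the IKDC samples, and their source was not tested. Erythroid genes were higher in 10 of 20 and lower in 0 by limma, or 1 at an unadjusted p under 0.05 (median 1.43; 6 to 9 higher with 1 of the 4 samples left out, fewest without IKDC replicate 2). Hba-a1, an alpha globin gene, gave 12060 and 13456 in IKDC against 516 and 1348 in cDC, and the carbonic anhydrase gene Car2 gave 1552 and 1986 against 125 and 191. The summed signal of the 20 genes was 22840 and 30204 in IKDC, 3285 and 4257 in cDC and 30200 and 17794 in PDC. Hba-a1 alone gave 12060 and 13456 of the IKDC sums. Exocrine pancreas genes were higher in 9 of 22 (median 1.45; 3 to 7 with 1 of the 4 samples left out, fewest without IKDC replicate 1) and lower in 0 by limma, or 4 at an unadjusted p under 0.05, with summed signals of 8906 and 7642 in IKDC against 4141 and 4207 in cDC. Cpb1, a pancreatic carboxypeptidase gene, gave 1349 and 798 against 80.7 and 107, and the trypsin gene Prss2 gave 923 and 714 against 11.5 and 88.4. Gp2, a zymogen granule gene, did not pass at 51.4 and 322 against 913 and 1450 (-2.95 ± 0.77, limma adjusted p = 0.0512), and was called lower without IKDC replicate 2 (0.0223). The part of the cells that express these genes in the counts above was not tested.

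Plasma cell genes were higher in 3 of 12 (Igha, Mzb1 and Jchain), with summed signals of 9533 and 7471 in IKDC, 2738 and 3293 in cDC and 12004 and 9460 in PDC. The call of Jchain was lost without IKDC replicate 1 or cDC replicate 1. Igha, the immunoglobulin A heavy chain gene, gave 5909 and 4205 in IKDC against 190 and 227 in cDC (4.48 ± 0.39, limma adjusted p = 5.73e-05), but its 2 further probe sets did not pass. B cell genes were higher in 4 of 17 (Fcmr, Cd72, Cd37 and Pou2af1) and in 0 to 2 with 1 of the 4 samples left out, with 0 without IKDC replicate 1 or cDC replicate 1. The 17 genes summed to 8721 and 5071 in IKDC and 3532 and 4047 in cDC. Ighm did not pass at 3094 and 1659 against 937 and 1088 (limma adjusted p = 0.0603), but 2 of its further probe sets were called higher and 5 were not called. IKDC replicate 1 was the higher IKDC sample in each of these sums. By limma 0 plasma cell and 0 B cell genes were lower, or 1 and 2 at an unadjusted p under 0.05.

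T cell genes were higher in 3 of 9 tested (Cd28, Cd3g and Cd8b1), and 1 to 3 with 1 of the 4 samples left out, fewest without IKDC replicate 1 or cDC replicate 2, and lower in 0 by limma, or 2 at an unadjusted p under 0.05. Their summed signal was 2268 and 2000.2 in IKDC and 1696 and 1459 in cDC. Cd3g, a chain of the T cell receptor complex, had 466 and 173 against 22.5 and 5.8, and its call was lost without IKDC replicate 1 or cDC replicate 2 (limma adjusted p up to 0.177). The T cell genes Lef1 and Icos did not pass (limma adjusted p = 0.114 and 0.118). Neutrophil genes were lower in 3 of 9 and mast cell genes higher in 1 of 5. Platelet genes were higher in 1 and lower in 1 of 7, and stroma genes lower in 1 of 17. The lower gene was Vwf in both lists. Over all genes the shares were 3.5% higher and 4.07% lower. The calls of Il1r2 and Cma1 held with each of the 4 samples left out, and those of Ltf, Camp, Nrgn and Vwf did not. The part of these cell types in the NK and dendritic results was not tested.

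**Figure D5:**
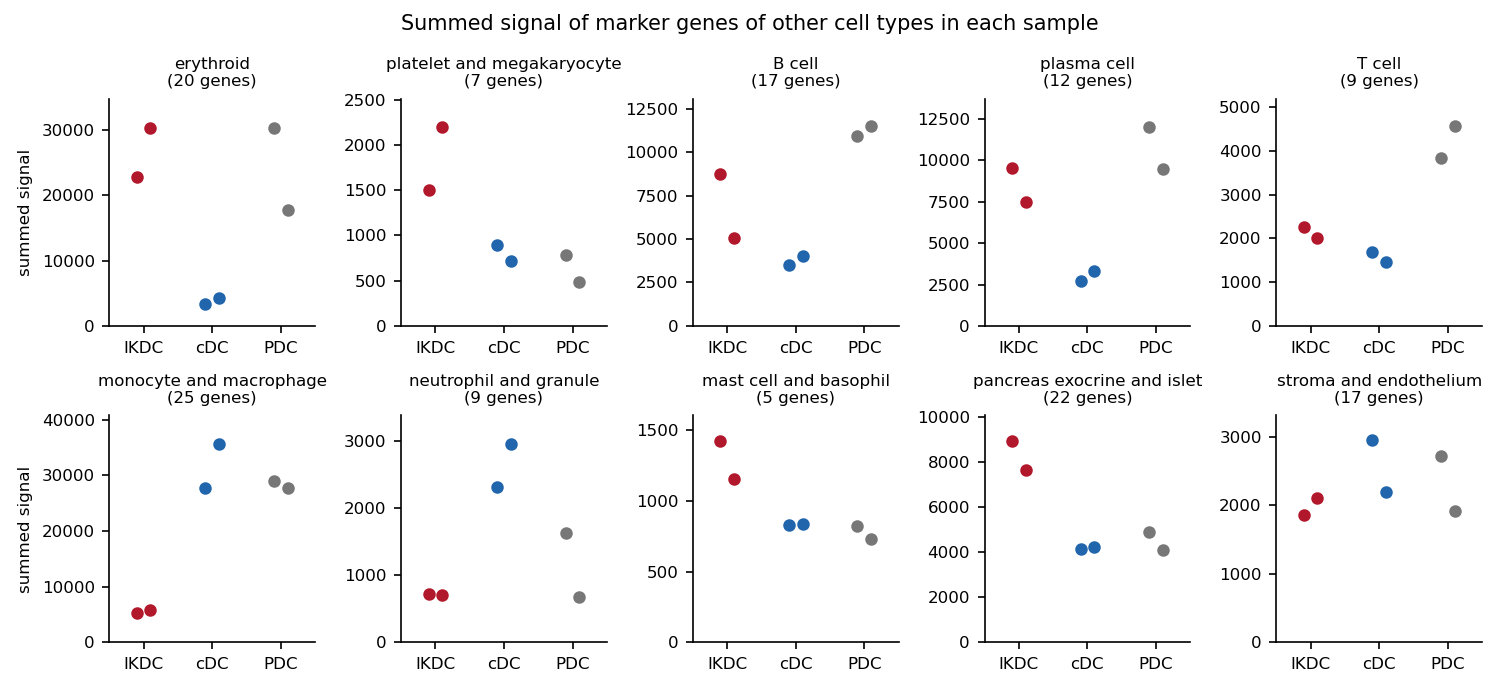
Summed signal of the tested marker genes of 10 other cell types in each IKDC, cDC and PDC sample, each panel on its own linear axis from 0; each point is 1 sample. The erythroid sum was 22840 and 30204 in IKDC against 3285 and 4257 in cDC, and the monocyte and macrophage sum was 5350 and 5767 against 27763 and 35534. A sum follows its brightest probe sets and does not measure the amount of a cell type.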

How the data were processed

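Signals of 18 arrays (6 samples on each of 3 array types) were used. Per the labels, the authors extracted total RNA, amplified it in a small-sample protocol and labelled antisense cRNA. The deposited intensity values are linear signals from GCOS 1.1.1, which the authors scaled globally on each array to a target intensity of 150 (per the labels). MAS5 is named in the submitters' processing notes. Scaling assumes equal total signal in all samples, and amplification shortens transcripts towards the 3′ end. A genome build was not given in the sources used here.

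All 198 control probe sets were left out. For each array type, lmFit and eBayes with trend (limma 3.58.1, R 4.3.3) were run on log2(signal + 16), with 3 populations in 1 model. The pseudocount of 16 understates changes of low genes. A fold written as "at least" sets signals under 60 to 60. Of 36701 probe sets, 29131 had 1 symbol in the platform annotation, 724 several and 6846 none. Of the 29131, 29044 were matched by gene identifier to a GRCm38.p6 table and took its symbol, whether or not it differed. A gene is its tested probe set with the highest mean signal. On simulated data with 200 of 22358 probe sets changed in this comparison, 100% were recovered at 2 and at 4 log2 units with 4 false calls. The changed probe sets were drawn from bright ones, and each had the typical spread of its signal level. Recovery of dim probe sets, or of those with a larger spread, was therefore not measured. For the same reason the 4 false calls do not give the error rate among the real calls.

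Members, markers and the 50 gene lists (1072 of 1509 genes tested) were chosen with earlier results of these data known, so a list's direction is no independent evidence. Lists are described by counts and medians, with no list test. Named are the markers, the 12 largest called differences each way with a mean of at least 200, up to 4 called and 2 bright uncalled members per list, and 10 bright genes with narrow intervals. Other names, chosen after values were seen, complete counts of 5 or fewer or are said to be such. Alternatives were other pseudocounts, filters, scalings, models, adjustments and left-out samples.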

Additional observations from a re-analysis of the deposited data

How the results depend on the processing

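The 625 probe sets higher and 680 lower in IKDC were within 1.5 times of these counts under every alternative other than leaving out an IKDC or cDC sample: 435 to 829 higher and 566 to 855 lower. The lowest counts came without an intensity trend. With 1 of the 6 samples left out the counts ran from 214 to 810 higher and from 269 to 850 lower, the high ends without a PDC sample. Among list genes 302 were called, and 172 to 350 with 1 sample left out. Among the 265 genes the naming rule gives 169 were called, and 129 to 172 with 1 sample left out. All 169 kept their direction under every alternative that tested them (159 of them with the filter at 200), 143 stayed past the threshold under those other than leaving out samples, and 114 with each of the 6 samples left out in turn. The labels give replicate numbers but do not say that a number marks a shared animal or day. Deviations of same-numbered samples correlated at -0.02 for IKDC with cDC, 0.07 for IKDC with PDC and 0.08 for cDC with PDC. With the replicate block 829 probe sets were higher and 821 lower, and 350 list genes and 173 named genes were called. Signals near the bacterial controls on U74B and U74C limit the size of differences there, and 2 samples per population limit all p-values.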
